A study of Homo sapiens with 6 samples.

Results

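The Rap GTPases are small membrane-anchored switches of the Ras superfamily, and 10 genes of this system were followed in A549 cells after knockdown of BAP18. They are the GTPases RAP1A, RAP1B, RAP2A and RAP2B, the exchange factors RAPGEF1, RAPGEF2 and RAPGEF6, and the GTPase-activating proteins (GAPs) RAP1GAP, SIPA1 and SIPA1L1. The members were chosen by gene symbol among the 35474 genes of the deposited count table, and 10 of 10 passed the filter on low counts that left 20776 genes for testing. A549 is an established human lung adenocarcinoma line, so both groups share the genotype of 1 line. In the siBAP18 group 3 cultures received siRNA against BAP18, a subunit of chromatin remodelling complexes, and in the siCtrl group 3 cultures received a non-targeting siRNA. All 6 cultures were harvested 48 h later, and polyadenylated RNA was sequenced as stranded paired-end libraries. Which of the 3 BAP18 siRNAs described in the study entered these cultures is not given in the sources used here. The comparison asks which genes differ in mRNA level once BAP18 is reduced.

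A Rap protein is active when it holds GTP and inactive when it holds GDP. Exchange factors load it with GTP in response to receptors, adaptors or cyclic AMP, whereas GAPs speed GTP hydrolysis and switch it off. Active Rap1 is best known for strengthening integrin adhesion and cadherin junctions, and Rap2 signals through kinases such as TNIK and MAP4K4. An mRNA level gives neither the amount of a protein nor the fraction of it that holds GTP.

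BAP18, listed as C17orf49, was lower in every siBAP18 library, with 108 to 137 counts against 705 to 751 in siCtrl. This is a log2 fold change of −2.65 (SE 0.111, adjusted p = 7.31e-16 by the quasi-likelihood test of edgeR after Benjamini-Hochberg adjustment over all genes tested, as for every adjusted p below unless another tool is named). Total counts ran from 42094524 to 56548620 per library. Mitochondrial genes took 6.86 to 7.43% of the counts in siCtrl and 5.27 to 6.14% in siBAP18. The siBAP18 libraries varied more among themselves, with a root mean square deviation from the group mean of 0.0960 to 0.142 on the log2 scale against 0.0845 to 0.0925 in siCtrl. The epithelial keratins KRT8 and KRT18 and the A549 enzymes ALDH1A1, AKR1B10 and NQO1 were abundant in all libraries, while the lung lineage genes SFTPC (0 to 7 counts), SFTPB (0 to 4) and NKX2-1 (0 to 8) were at or near 0. The 11 markers of A549 and lung lineage summed to 8860 to 9069 RPKM in siCtrl and 5917 to 6134 RPKM in siBAP18. Of 7 markers of other cells, 4 were analysed here, and their sum was 30.1 to 32.3 RPKM in siCtrl and 55.1 to 70.6 RPKM in siBAP18. That sum was nearly all CD68, a lysosomal protein gene used as a macrophage marker (28.7 to 31.1 RPKM in siCtrl and 54.2 to 69.7 in siBAP18). The endothelial genes PECAM1 and VWF did not exceed 45 and 6 counts, and COL1A1 of fibroblasts was lower in siBAP18 (0.844 to 1.02 RPKM) than in siCtrl (1.16 to 1.31). The part of these markers in the values of the Rap genes was not tested. In bulk RNA, fewer cells of a kind and less RNA per cell cannot be told apart.

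The 4 GTPases are paralogs, and the first 30 coding bases are shown because they let a reader see how near the family members are in the letters by which reads are assigned. Each sequence is given 5′ to 3′ on the + strand of GRCh38, and capitals mark the bases that differ from RAP1A. RAP1B differs at 4 of these bases, RAP2A at 7 and RAP2B at 8.
RAP1A, chr1:111691361-111691390: atgcgtgagtacaagctagtggtccttggt
RAP1B, chr12:68648725-68648754: atgcgtgagtaTaagctagtCgtTcttggC
RAP2A, chr13:97434471-97434500: atgcgCgagtacaaAGtGgtggtGctGggC
RAP2B, chr3:153162694-153162723: atgAgAgagtacaaAGtGgtggtGctGggC
Over the whole coding sequence, RAP1A and RAP1B share 82.9% of 555 bases, with a longest identical run of 26 bases. RAP2A and RAP2B share 84.4% of 552 bases, with a longest run of 77. Between transcripts of RAP1B and RAP2B the longest identical run is 45 bases. All 3 runs are shorter than the 150-base reads. The pseudogenes RAP1AP (2 to 12 counts), RAP1BP1, RAP1BP2 and RAP1BP3 (0 to 4 counts each) share runs of up to 78, 62, 28 and 81 bases with RAP1A or RAP1B, and none passed the filter.

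Of the 10 Rap genes, 3 rose and 4 fell at an adjusted p under 0.05, and 3 did not pass. RAP2B, RAPGEF1 and SIPA1L1 rose, and RAP1B, RAP2A, RAPGEF6 and RAP1GAP fell. Among all 20776 genes tested, 24.5% were called higher and 25.1% lower, so 3 and 4 of 10 lie near the shares of the whole transcriptome. Only RAP2B also passed an absolute log2 fold change of 1, a limit that 4.72% of tested genes passed upward and 3.74% downward. No overlap between the 2 groups of libraries was seen for the same 3 genes upward and the same 4 downward, against 27.6% and 29.0% of all genes tested. The plot of CPM by library gives all 60 values, where CPM is the count relative to the TMM-scaled library total.

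**Figure D1:**
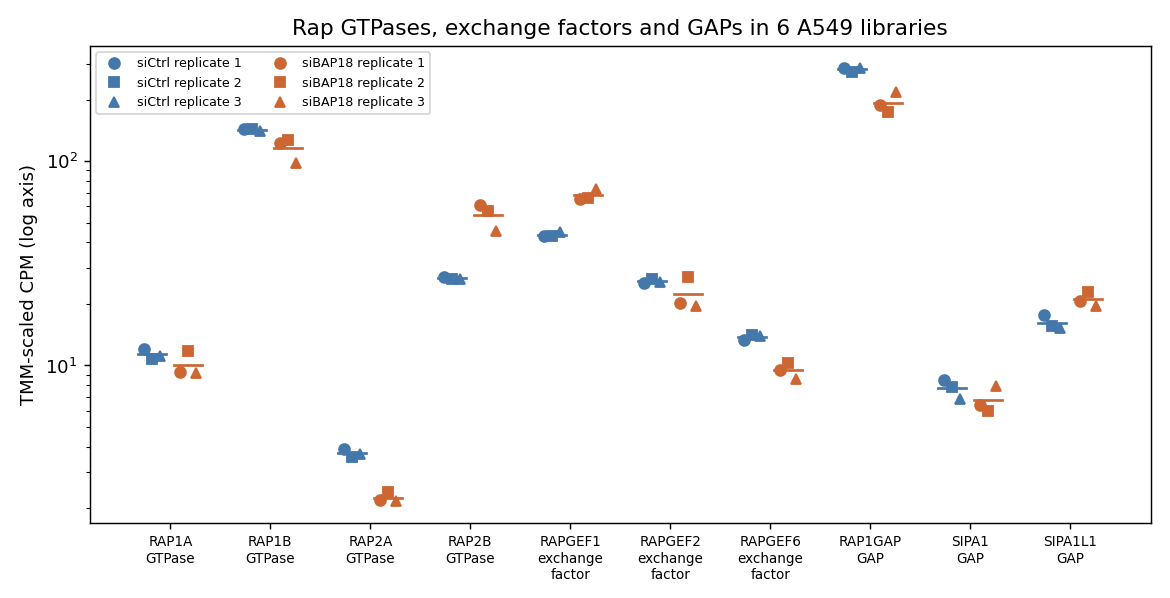
TMM-scaled CPM (log axis) of the 10 Rap genes in the 3 siCtrl libraries (blue) and the 3 siBAP18 libraries (orange), with marker shapes for replicate numbers and horizontal bars for group means. RAP2B, RAPGEF1 and SIPA1L1 lie higher in all siBAP18 libraries, RAP1B, RAP2A, RAPGEF6 and RAP1GAP lie lower, and RAP1A, RAPGEF2 and SIPA1 overlap.

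RAP2B had the largest fold change of the 10 genes. It encodes a Rap2 GTPase and is a single-exon gene at chr3:153162270-153170620 on the + strand. Its level was 27.1, 26.6 and 26.4 CPM in siCtrl replicates 1, 2 and 3 and 61.0, 57.1 and 45.4 CPM in siBAP18 replicates 1, 2 and 3. The groups did not overlap, and siBAP18 replicate 3 was the lowest of its group. The means were 26.7 ± 0.365 and 54.5 ± 8.09 CPM (SD, n = 3 each), a 2.04-fold difference with a 95% interval of 1.81 to 2.31. On the log2 scale the change was 1.03 (SE 0.0854, adjusted p = 2.64e-10 in edgeR's quasi-likelihood test). It lay so close to the limit of 1 that it fell to 0.94 without siBAP18 replicate 1 and to 0.999 without replicate 2, which removed the call on size but not the call on adjusted p.

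RAP2A, the other Rap2 GTPase among the members, moved the opposite way. The gene lies at chr13:97434222-97469128 on the + strand and was the least abundant member, with 166 to 208 counts in siCtrl and 88 to 140 in siBAP18. Its level was 3.91, 3.57 and 3.68 CPM in the siCtrl libraries and 2.21, 2.40 and 2.17 CPM in the siBAP18 libraries. The siBAP18 values were all below the lowest siCtrl value. RAP2A fell, with a log2 fold change of −0.72 (SE 0.144, 95% interval −1.01 to −0.42, adjusted p = 1.79e-04 in edgeR's test), and the estimate was −0.38 (adjusted p = 0.0245) with offsets for GC content and length. RAP2C, the remaining Rap2 paralog, was not a member and had an estimate of −0.02 (95% interval −0.21 to 0.18, adjusted p = 0.901).

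RAP1B supplied most of the RAP1 counts and fell to a lesser extent. It lies at chr12:68610839-68671901 on the + strand. Its level was 144.3, 143.0 and 141.1 CPM in siCtrl and 122.1, 127.1 and 98.4 CPM in siBAP18, where replicate 3 was lowest. Its log2 fold change was −0.30 (SE 0.0778, 95% interval −0.46 to −0.14, adjusted p = 0.00227 in edgeR's test), and without siBAP18 replicate 3 it was −0.19 (adjusted p = 0.00295). With GC and length offsets the estimate turned to 0.11 (adjusted p = 0.121), and limma on log2 RPKM gave adjusted p values of 0.0576 and 0.0609. RAP1B has 37.9% GC, lower than all but 6.75% of the tested genes with a known GC content. Its listed length of 16942 bases exceeds that of 98.8% of the genes tested. The part of base composition and length in the fall was not tested.

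RAP1A, the second Rap1 GTPase, lies at chr1:111542218-111716691 on the + strand. It had 12.0, 10.8 and 11.2 CPM in siCtrl and 9.28, 11.8 and 9.18 CPM in siBAP18. The groups overlapped, with siBAP18 replicate 2 within the siCtrl range. A log2 fold change of −0.16 did not pass (SE 0.101, 95% interval −0.37 to 0.05, adjusted p = 0.190). It was −0.29 (adjusted p = 0.0126) without siBAP18 replicate 2 and 0.17 (adjusted p = 0.104) with the GC and length offsets.

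**Figure D2:**
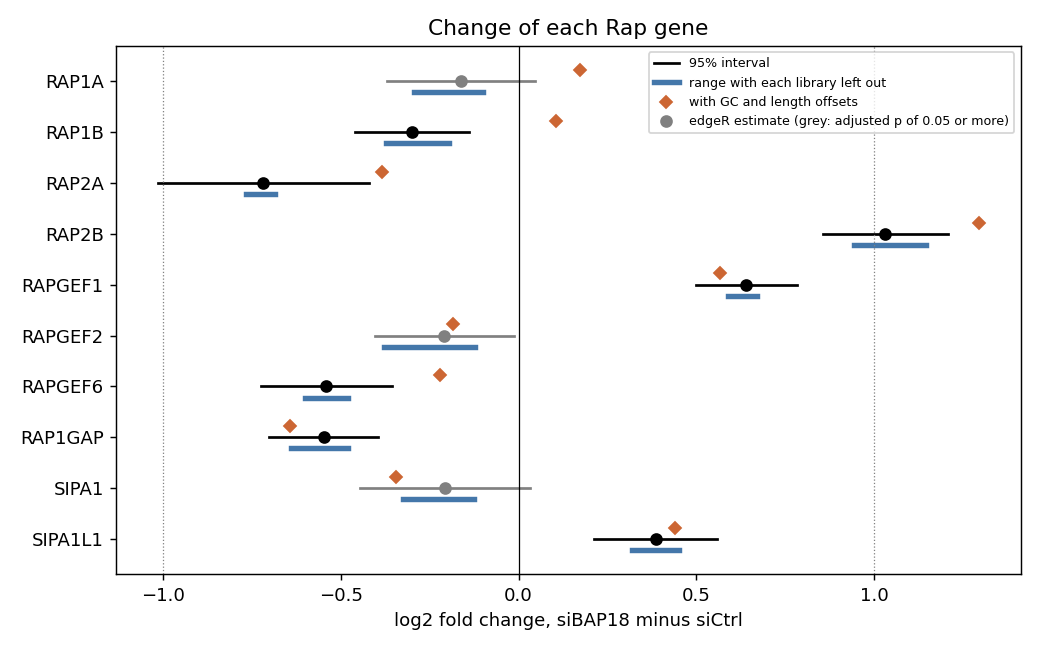
Log2 fold change (siBAP18 minus siCtrl) of the 10 Rap genes, with the edgeR estimate as a dot (grey where the adjusted p is 0.05 or more) and its 95% interval as a thin line. Thick blue lines span the estimates with each library left out, and orange diamonds give the estimate with GC and length offsets, which puts RAP1A at 0.17 and RAP1B at 0.11, on the other side of 0, while the other 8 genes stay on their side.

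Among the exchange factors, RAPGEF1 rose. Its product is brought to membranes by CRK adaptors and activates Rap1, and the gene lies at chr9:131576770-131740074 on the − strand. Its level was 42.9, 43.0 and 45.0 CPM in siCtrl and 65.3, 65.8 and 73.0 CPM in siBAP18. The spread within each group was small against the gap between them, and siBAP18 replicate 3 was the highest. Its log2 fold change was 0.64 (SE 0.0692, 95% interval 0.50 to 0.78, adjusted p = 2.63e-08 in edgeR's test), a 1.56-fold difference. Across the 16 alternative settings it stayed between 0.57 and 0.67.

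RAPGEF6 fell. It encodes a PDZ domain exchange factor for Rap1 and Rap2 and lies at chr5:131423921-131635236 on the − strand. Its level was 13.4, 14.2 and 14.0 CPM in siCtrl and 9.56, 10.3 and 8.63 CPM in siBAP18, without overlap. Its log2 fold change was −0.54 (SE 0.0895, 95% interval −0.72 to −0.36, adjusted p = 1.68e-05), and −0.22 (adjusted p = 0.0160) with GC and length offsets. The listed gene CTC-432M15.3 on the same strand shares 6112 of its 6393 exon bases with RAPGEF6, so reads from the pair cannot be told apart with certainty. Its counts were 694, 650 and 622 in siCtrl and 566, 632 and 374 in siBAP18, a log2 fold change of −0.40 (adjusted p = 5.27e-04).

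RAPGEF2, a related PDZ domain exchange factor at chr4:159104178-159360169 on the + strand, did not pass. It had 25.2, 26.6 and 25.7 CPM in siCtrl and 20.1, 27.2 and 19.5 CPM in siBAP18. Replicate 2 of siBAP18 was the highest of the 6 libraries and the other two of that group were the lowest. Its log2 fold change was −0.21 (SE 0.0944, 95% interval −0.40 to −0.01, adjusted p = 0.0700). Without siBAP18 replicate 2 it was −0.38 (adjusted p = 7.61e-05), and fitting all genes with no filter gave an adjusted p of 0.0241. With the replicate number as a block it was 0.0153.

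RAP1GAP fell, and it was by far the most abundant member. It encodes a GAP for Rap1 and lies at chr1:21596215-21669363 on the − strand. Its level was 284.7, 273.8 and 286.9 CPM in siCtrl and 187.5, 174.0 and 217.1 CPM in siBAP18. All siBAP18 values lay below all siCtrl values, and siBAP18 replicate 3 was the highest of its group. Its log2 fold change was −0.55 (SE 0.0743, 95% interval −0.70 to −0.39, adjusted p = 9.85e-07 in edgeR's test), which leaves 0.684 of the siCtrl level. It ranged from −0.64 to −0.48 across the 16 alternative settings.

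SIPA1L1, a member of the SIPA1 family of Rap GAPs with a scaffold role at synapses and the actin cytoskeleton, rose. It lies at chr14:71320449-71741229 on the + strand and had 17.7, 15.5 and 15.2 CPM in siCtrl and 20.7, 23.0 and 19.5 CPM in siBAP18. The lowest siBAP18 library exceeded the highest siCtrl library. Its change on the log2 scale was 0.39 (SE 0.0840, 95% interval 0.21 to 0.56, adjusted p = 4.37e-04).

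SIPA1, a GAP for Rap1 and Rap2 at chr11:65638097-65650930 on the + strand, did not pass. It had 8.54, 7.83 and 6.89 CPM in siCtrl and 6.40, 5.99 and 7.92 CPM in siBAP18, and siBAP18 replicate 3 lay inside the siCtrl range. Its change on the log2 scale was −0.21 (SE 0.116, 95% interval −0.45 to 0.03, adjusted p = 0.146). It was −0.32 (adjusted p = 0.0145) without that library and −0.35 (adjusted p = 0.00748) with the GC and length offsets. SIPA1 has 66.8% GC, above 98.2% of the tested genes with a known GC content.

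Levels were compared between genes on the deposited RPKM scale, which is per kilobase of listed gene length. In siCtrl, RAP1GAP stood at 48.9 ± 0.720 RPKM, followed by RAP1B at 8.41 ± 0.133, RAPGEF1 at 6.22 ± 0.148 and RAP2B at 3.19 ± 0.0473 (SD, n = 3 each). RAPGEF2 (2.15 ± 0.0786) and RAP1A (2.04 ± 0.0949) overlapped, SIPA1 came next at 1.66 ± 0.177, SIPA1L1 (1.30 ± 0.101) and RAPGEF6 (1.24 ± 0.0471) overlapped, and RAP2A was lowest at 0.666 ± 0.0260. In siBAP18, RAP1GAP was again highest at 33.5 ± 2.61 RPKM. RAPGEF1 (9.71 ± 0.319) now stood above RAP1B (6.87 ± 1.13), and RAP1B overlapped with RAP2B (6.55 ± 1.15). RAPGEF2 (1.86 ± 0.414), RAP1A (1.83 ± 0.326), SIPA1L1 (1.70 ± 0.200) and SIPA1 (1.45 ± 0.164) formed a run in which each overlapped with the next, above RAPGEF6 (0.855 ± 0.103) and RAP2A (0.406 ± 0.0351). Some of these overlaps changed when the longest coding transcript served as length in place of the listed gene length. RAP1B and RAP2B then did not overlap in siBAP18, and RAP2B and RAPGEF2 overlapped in siCtrl.

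The makeup of the 4 member GTPases followed from these levels and is given as a description, chosen after the values were seen. RAP2C was not a member and is left out of the sums and shares. It stood at 2.46 ± 0.141 RPKM in siCtrl and 2.44 ± 0.286 RPKM in siBAP18 (SD, n = 3 each). Rap1 genes made up 73.0, 73.1 and 73.0% of the summed RPKM of the 4 GTPases in siCtrl and 53.6, 57.0 and 56.2% in siBAP18. RAP2B alone made up 22.2, 22.4 and 22.3% in siCtrl and 44.0, 40.4 and 40.9% in siBAP18. The summed level itself overlapped between the groups, at 14.3 ± 0.227 RPKM in siCtrl and 15.7 ± 2.50 RPKM in siBAP18, with siBAP18 replicate 3 at 12.8. When the longest coding transcript served as length in place of the listed gene length, the Rap1 share was 76.9 ± 0.0476% in siCtrl and 60.5 ± 1.68% in siBAP18.

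Within the pair of RAP2B and RAP2A the shift was widest. The ratio of RAP2B to RAP2A in RPKM was 4.62, 4.97 and 4.79 in siCtrl and 18.4, 15.9 and 14.0 in siBAP18. The ratio of RAP1B to RAP1A overlapped between the groups, at 4.13 ± 0.199 and 3.77 ± 0.454. On the regulator side, RAPGEF1 held 64.7 ± 0.843% of the summed exchange factor RPKM in siCtrl and 78.2 ± 3.30% in siBAP18, and the sum was 9.61 ± 0.219 and 12.4 ± 0.528 RPKM. The 3 member GAPs summed to 51.8 ± 0.685 RPKM in siCtrl and 36.6 ± 2.58 RPKM in siBAP18. RAP1GAP held 94.3 ± 0.520% and 91.4 ± 0.716% of this sum. Other Rap GAP genes were not members and are left out of the sum and share. Among them, SIPA1L3 stood at 9.05 RPKM in siCtrl and 8.68 RPKM in siBAP18, and RAP1GAP2 at 4.16 and 3.72 RPKM. Neither passed (adjusted p = 0.440 and 0.0801). RASA3 stood at 2.99 and 4.57 RPKM and rose, as did SIPA1L2. The RPKM ratio of RAP1GAP to RAPGEF1 was 8.07, 7.75 and 7.76 in siCtrl and 3.49, 3.22 and 3.62 in siBAP18. With the longest coding transcript as length, this ratio was 11.3 ± 0.258 in siCtrl and 4.94 ± 0.297 in siBAP18. The RAPGEF1 share was then 59.3 ± 0.894% and 73.9 ± 3.77%.

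**Figure D3:**
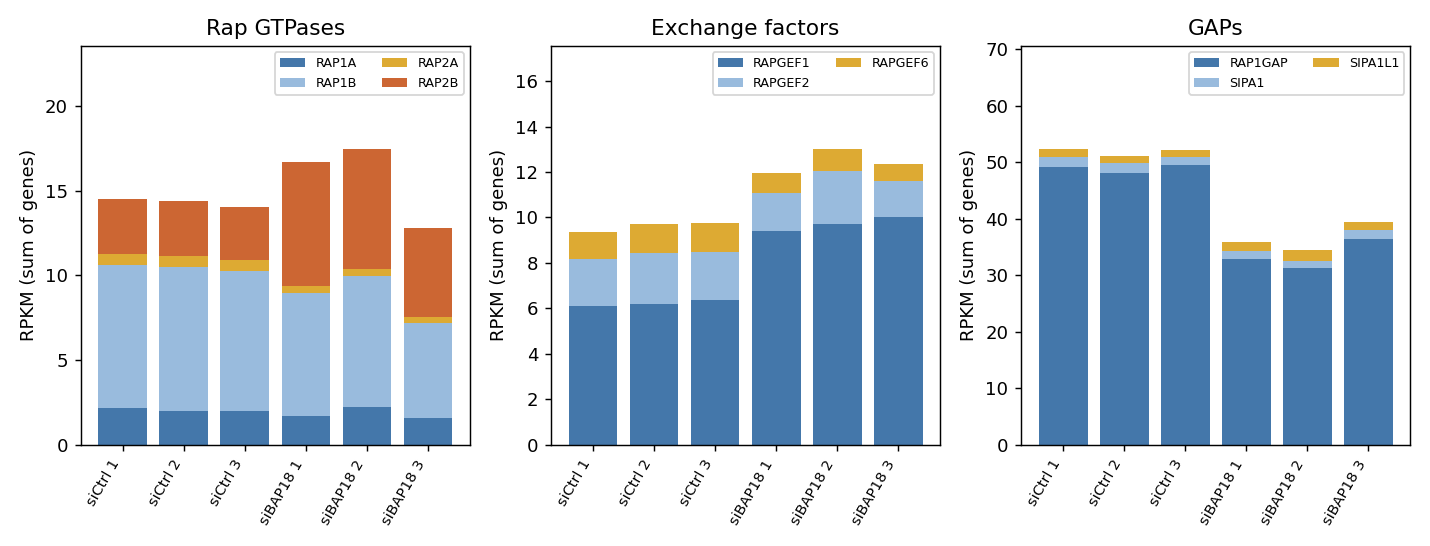
Deposited RPKM of the Rap GTPases, exchange factors and GAPs, stacked by gene, 1 bar per library. RAP2B (orange, left) takes 40.4 to 44.0% of the sum of the GTPases shown in siBAP18, against 22.2 to 22.4% in siCtrl. The sum of the exchange factors shown is higher in siBAP18 through RAPGEF1, and the sum of the GAPs shown is lower through RAP1GAP.

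Guide bases 2 to 8 of an siRNA can pair with 3′ UTRs of other genes in the manner of a microRNA seed, so the words that would pair with the guides of the siRNAs described in the study were searched in the transcript strand of 3′ UTRs of 17026 genes. The word AATCACA of siBAP18#1 was present in 4 of the 10 Rap genes (RAP1A, RAP1B, RAP2B and RAPGEF6) and in 14.4% of all genes searched. The longest 3′ UTRs of these 4 genes have 4290, 12652, 7375 and 3345 bases. Shares over all genes were not matched for 3′ UTR length, here or for the words below. The word AAGATTC of siBAP18#2 was present in RAP2A and RAP2B and in 11.5% of genes, the word ACTCAAC of siBAP18#3 in RAP1B and in 7.32%, and the word TGTCACG of siCtrl in none of the 10 and in 3.14%. The sites in the GTPases that rose or fell are shown with 10 bases on each side. Each is given 5′ to 3′ on the + strand of GRCh38, to let a reader see the word in its place. The siBAP18#1 sites in RAP1A, which did not pass, and in RAPGEF6, which fell, are not shown. Capitals mark the word.
RAP2A, siBAP18#2, chr13:97466596-97466622: aatatctataAAGATTCcacagtttga
RAP2B, siBAP18#2, chr3:153165801-153165827: tgcctttgcaAAGATTCgttcttgtat
RAP2B, siBAP18#1, chr3:153166717-153166743: gacttaattgAATCACAttttgggacc
RAP1B, siBAP18#1, chr12:68666632-68666658: caaaatgcttAATCACAtctgcaaaga
RAP1B, siBAP18#1, chr12:68668657-68668683: ccgtcctatgAATCACAaatagaagtt
RAP1B, siBAP18#3, chr12:68657242-68657268: acttttaatcACTCAACcttattaagg
A match is a description of letters only, and the part of such sites in the values was not tested.

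Other genes of the pathway were read from lists compiled by hand, and their counts stand beside 24.5% higher and 25.1% lower among all genes tested. Of 11 further Rap GTPase, exchange factor and GAP genes, 2 rose and 2 fell. RASA3, a GAP for Ras and Rap1, rose (log2 fold change 0.61, adjusted p = 3.03e-07), as did SIPA1L2 (0.29, adjusted p = 0.0119). PLCE1, a phospholipase C with an exchange factor domain, fell (−0.43, adjusted p = 5.67e-04). RASGRP2, a calcium-regulated Rap1 exchange factor of blood cells, fell (−1.71, adjusted p = 0.00299) at 16 to 44 counts in siCtrl and 4 to 16 in siBAP18. The list held 1 rise without siCtrl replicate 3 or siBAP18 replicate 2, and 1 fall without siCtrl replicate 1. Both limma alternatives gave 1 rise and 0 or 1 fall. They take only genes with a mean RPKM of at least 0.5. RASGRP2, at 0.0896 RPKM in siCtrl and 0.0268 in siBAP18, was therefore not tested in them.

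Of 18 Rap effectors, 4 rose and 5 fell. The integrin activator TLN1 (log2 fold change 0.37, adjusted p = 8.45e-05) and the kinase MAP4K4 (0.40, adjusted p = 2.82e-05) rose. KRIT1, a junctional Rap1 partner, fell (−0.74, adjusted p = 3.91e-08), as did RASSF5, also called RAPL (−1.01, adjusted p = 3.66e-04, 77 to 86 counts in siCtrl and 34 to 53 in siBAP18). The Rap2 effector kinase TNIK fell (−0.44, adjusted p = 0.00346). MINK1, the paralog of MAP4K4 and TNIK, did not pass (−0.10, adjusted p = 0.237) and was named after its values were seen. The 5 effectors called lower became 3 without siCtrl replicate 2 or 3, 3 by the DESeq2 Wald test and 1 in both limma alternatives. Those 2 alternatives take only genes with a mean RPKM of at least 0.5. RASSF5, at 0.240 RPKM in siCtrl and 0.119 in siBAP18, was therefore not tested in them.

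Of 19 adaptors and upstream inputs, 2 rose and 4 fell. CRK, the adaptor that binds RAPGEF1, fell (log2 fold change −0.68, adjusted p = 5.66e-08), whereas BCAR1, the docking protein that binds CRK, rose (0.55, adjusted p = 1.35e-06). MAGI2, a junctional scaffold that binds RAPGEF2, rose by 1.89 (adjusted p = 2.61e-08), from 29 to 48 counts in siCtrl to 108 to 171 in siBAP18. On the cyclic AMP side, the kinase subunit PRKACB (−0.78, adjusted p = 4.33e-07) and the cyclase ADCY7 (−0.64, adjusted p = 3.77e-06) fell. Without siBAP18 replicate 3, 4 genes of this list were called higher. Both limma alternatives called 1, but they take only genes with a mean RPKM of at least 0.5. MAGI2, at 0.0248 RPKM in siCtrl and 0.0918 in siBAP18, was therefore not tested in them.

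Of 17 integrin and cadherin adhesion genes, 11 fell and 4 rose, where 25.1% of all genes tested were lower and 24.5% higher. Beside integrins and cadherins, this list holds catenins and focal adhesion proteins. The median log2 fold change of the list was −0.34, beside 0.0010 over all genes tested. E-cadherin CDH1 (−1.32, adjusted p = 3.81e-14), p120-catenin CTNND1 (−0.95, adjusted p = 1.47e-11) and the laminin receptor subunit ITGA6 (−0.64, adjusted p = 9.40e-08) fell. The focal adhesion protein ZYX (0.77, adjusted p = 1.54e-08) and the integrin subunits ITGA3 (0.48, adjusted p = 2.07e-06) and ITGA5 (0.30, adjusted p = 0.00170) rose. CDH1 is also 1 of the A549 markers above. Of 5 prenylation and chaperone genes, PGGT1B, a subunit of the prenyltransferase that lipidates Rap1, fell (−0.97, adjusted p = 1.23e-07). RCE1 and ICMT, which finish the processing of prenylated proteins, rose (0.32 and 0.21, adjusted p = 0.00753 and 0.0313), and 0 of this list were called higher without siCtrl replicate 1 and 1 without siCtrl replicate 3 or siBAP18 replicate 1.

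Over all 70 genes of these 5 lists, 14 rose and 23 fell, beside 24.5% and 25.1% of all genes tested, with a median log2 fold change of −0.06. The 10 Rap genes had a median of −0.21. Among the other Ras family GTPases, 22 of 29 listed genes were tested, of which 9 rose and 3 fell, against 24.5% and 25.1% of all genes tested. Without siCtrl replicate 1, 6 were called higher. HRAS rose (log2 fold change 0.72, adjusted p = 1.03e-08), whereas NRAS (−0.37, adjusted p = 9.29e-04) and the tumour suppressor-like GTPase DIRAS1 (−0.50, adjusted p = 0.00223) fell. RRAD and GEM, GTPases that inhibit calcium channels, had the widest rises, by 3.88 (adjusted p = 3.25e-11, 4 to 11 counts in siCtrl and 94 to 155 in siBAP18) and by 2.79 (adjusted p = 1.68e-16, 124 to 150 counts and 693 to 1173).

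**Figure D4:**
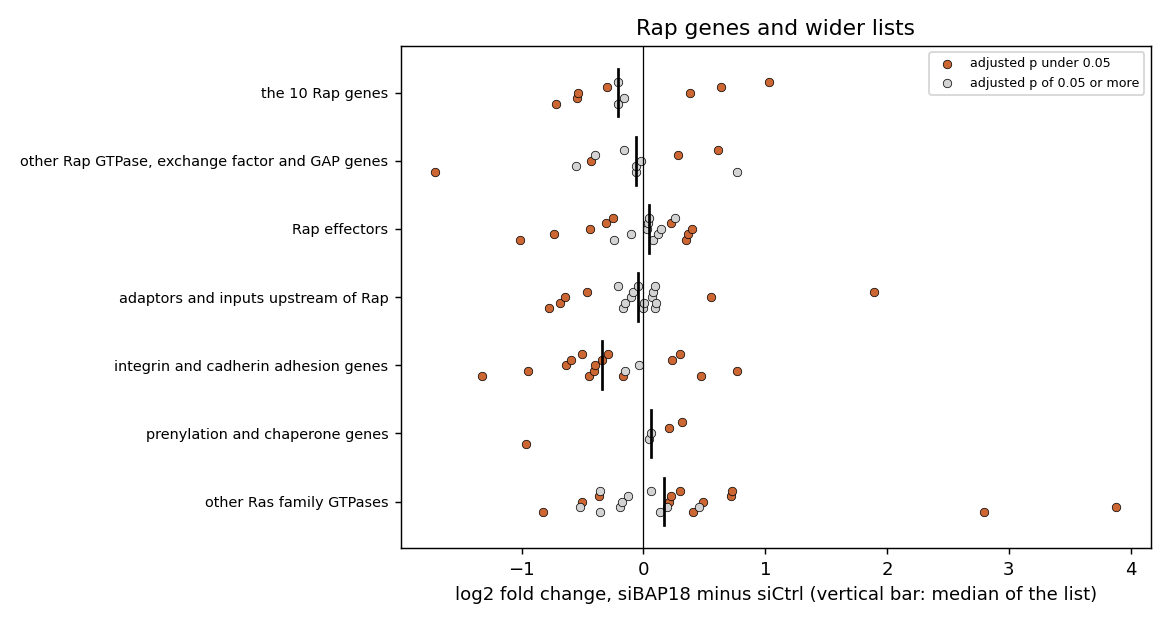
Log2 fold change (siBAP18 minus siCtrl) of each tested gene in the 7 lists, 1 point per gene, orange at an adjusted p under 0.05 and grey otherwise, with a vertical bar at each list's median. The list of integrin and cadherin adhesion genes has the lowest median (−0.34). MAGI2 stands apart at 1.89 among adaptors and inputs, and RRAD (3.88) and GEM (2.79) stand apart among the other Ras family GTPases.

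The genes whose levels followed RAP2B most closely over the 6 libraries were STX3, ZSCAN5A and AC016629.3, each with a Pearson r of 0.999 between log2 CPM values. These points share 2 groups and the scaling of the libraries, and 1073 of 14221 genes had an r over 0.95, so the order is a description only.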

How the data were processed

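RNA from 3 siCtrl and 3 siBAP18 cultures of A549 was sequenced as poly(A)-selected, strand-specific, 150-base paired-end libraries. The authors deposited raw counts per gene and RPKM, and the deposited RPKM values equal counts per kilobase of listed length relative to the column total. Submitters' processing notes name hg38 and GRCm38, and exon positions are on GRCh38. Aligner, counting program and use of strand are not given in the sources used here. Of 48431 values from 1 to 10 counts, 77.4% are even, and whether both mates of a pair were counted is not given in the sources used here. Floors of 3 counts cover counting error only.

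After filterByExpr, counts were TMM-scaled and tested with edgeR 4.0.16's quasi-likelihood test in R 4.3.3, Benjamini-Hochberg adjusted over 20776 genes. The SE is the log2 fold change over the root of F, and intervals are 95%. Thresholds were 0.05 for adjusted p and 1 for the absolute log2 fold change. Alternatives used DESeq2 1.42.0, limma 3.58.1 on log2(RPKM + 1) or log2(RPKM + 0.1) at a mean RPKM of at least 0.5, other scalings and filters, a replicate block, GC and length offsets (natural splines) and each library left out. The main edgeR fit, the replicate block, the DESeq2 Wald test and limma on log2(RPKM + 1) were run on simulated data. The other alternatives, among them the GC and length offsets, were not. No replicate pair was a copy (chi-square per degree of freedom 4.17 to 25.8). Positions, 3′ UTRs and sequences come from GENCODE 29, to which 34916 of 35474 genes were matched. Longest coding transcripts as length were added after seeing the data.

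Members and lists were chosen with earlier results of these data known. The text names all members, C17orf49, HRAS, NRAS, pseudogenes of members, genes overlapping a member, up to 3 genes of smallest adjusted p in each direction per list, and the 3 genes most like the member of smallest adjusted p (average log2 CPM of at least 1). RAP2C, SIPA1L3, RAP1GAP2 and MINK1 were chosen after their values were seen. Cultures are described as biological replicates of 1 line. PTPRC, CD3E and DCN were not analysed here, and some genes that the rule would name are not reported here.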

Additional observations from a re-analysis of the deposited data

How the results depend on the processing

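The direction and the side of the adjusted p threshold were kept in 16 of 16 alternatives by RAP2A, RAP2B, RAPGEF1, RAPGEF6, RAP1GAP and SIPA1L1. With GC and length offsets, RAP1A turned to 0.17 and RAP1B to 0.11 on the log2 scale, and the cause was not tested. Members past both thresholds numbered 0 in both limma alternatives, where RAP2B was 0.84 with a pseudocount of 1, and 0 to 1 with each library left out (0 without siBAP18 replicate 1 or 2). The wider lists held 9 rises in both limma alternatives, which did not test MAGI2, against 14 in the main fit. Members lower ranged from 3 (both limma alternatives) to 6 (without siBAP18 replicate 2), and members higher numbered 3 throughout. Other scalings moved the median of all genes by under 0.1. Residuals over 14222 genes correlated weakly between siCtrl and siBAP18 libraries of the same replicate number (Pearson r 0.0722, 0.222 and 0.105). Each library still correlated best with its own number in the other group. The numbers may thus pair the libraries, and the main fit did not use them. The replicate block moved calls from 10305 to 10803 and gave 5 members lower, with RAPGEF2 at −0.22 (adjusted p = 0.0153). RAP2A, at 88 to 208 counts, is the member most limited by depth.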
